A study of Drosophila melanogaster and Drosophila biarmipes with 20 samples.

Results

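The genes described here are homothorax (hth), extradenticle (exd), teashirt (tsh), tiptop (tio), nubbin (nub), POU domain protein 2 (pdm2), rotund (rn) and Zn finger homeodomain 2 (zfh2), 8 transcription factor genes that pattern the hinge and the adjoining parts of the Drosophila wing. Their chromatin was followed through 5 stages of wing development in D. melanogaster. ATAC-seq was used, in which a transposase cuts open DNA and stretches dense in cuts are listed as open regions. A region was counted for a gene where it overlapped the gene's dm6 span, or lay within 10 kb of the gene's nearer end with no protein-coding gene closer. Of 98646 regions in the union of the single-library lists, 280 met this rule.

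The wing grows along an axis from the body wall through the hinge to the blade. Hth and Exd are homeodomain proteins that act together, and Exd enters the nucleus when bound to Hth. Tsh and Tio are related zinc finger proteins, and Tsh marks the most proximal part of the young wing disc. The POU domain proteins Nub and Pdm2 and the zinc finger protein Rn mark the future blade and the nearest hinge, and Zfh2 is found in the distal hinge around it. In the disc, hinge and body wall keep hth active while the blade loses it.

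All libraries came from male flies raised at 20 °C, with 2 libraries at each stage, 10 in all. The stages were 0%, 48%, 60%, 69% and 78% of the way through pupal development. No transgene or treatment is labelled, and the labels name no strain. Wing imaginal discs were used at 0%, 24 to a library, and pupal wings later: 14 to 17 wings of 11 or more animals at 48%, and 24 at each later stage. Pupal wings older than 60% were cut before the tissue was broken up. How much hinge and body wall tissue the dissected wings held is not in the labels, so stage and tissue composition cannot be told apart. The signal is that of whole tissue, where fewer cells with a region open and a region less open in every cell cannot be told apart either.

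The lists rested on 56282342 to 119278540 tags per library and held 41485 to 80705 regions. They give coordinates and a score fixed at 1, so a region's measure is whether a library listed it and over how many bases. Per the list headers, 4 libraries had been called with an estimated fragment length of 138 to 208 bp, namely replicate 1 of 0%, both replicates of 48% and replicate 2 of 60%. The other 6 had 50 to 58 bp. The headers place 6 libraries in a first dated folder (every replicate 1, and replicate 2 of 48%) and 4 in a second. No p-value is given for a region by itself, because an exact two-sided test of 2 libraries against 2 cannot go below 0.333. Each gene was instead tested by the share of its territory that listed regions covered. A territory is the gene span with up to 10 kb on either side, ending at the midpoint to the next protein-coding gene. Differences are on the arcsine square root scale, from a limma fit of 13092 genes with Benjamini-Hochberg adjustment over all of them. The labels call the libraries biological replicates without saying how animals were divided, so the p-values measure the spread between these libraries.

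Open chromatin around hth and zfh2 was most extensive in the wing disc and had shrunk by 48%, and it stayed below the disc level at every later stage. For hth, the mean covered share of the territory was 28.9% at 0% and 13.1% to 15.3% at the 4 pupal wing stages. For zfh2, it was 27.0% at 0% and 10.4% to 15.8% later. The other 6 genes passed the test in no contrast as fitted, and some passed under other settings, given below. Of the 8 genes, 2 were thus called lower in the pupal wing than in the disc and 0 higher, where 21% of all genes were called lower and 22.5% higher. The same 2 were lower at 48% than at 0% and 0 higher, where 20.9% of all genes were lower and 12.4% higher. At an unadjusted p under 0.05 the number higher was also 0 in both contrasts.

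**Figure D1:**
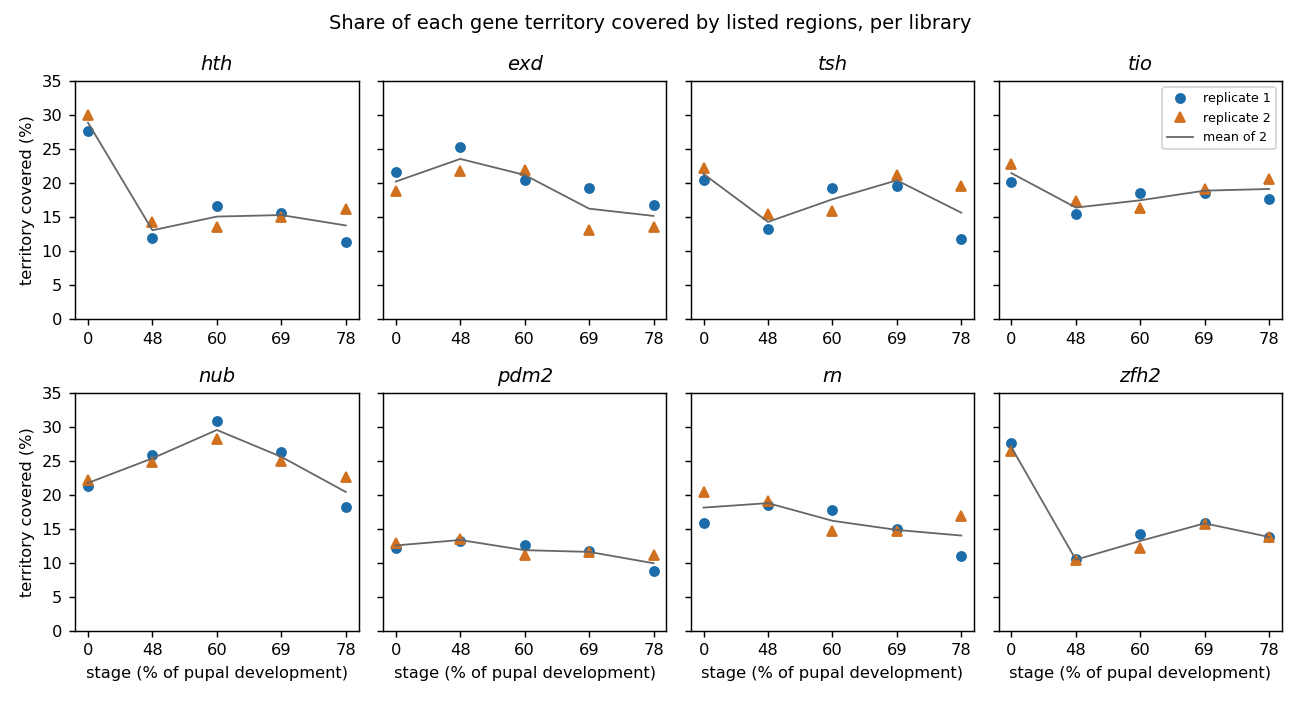
Share of each gene's territory covered by listed regions (vertical axis, %) against stage (horizontal axis, % of pupal development, with stages evenly spaced). Circles are replicate 1, triangles replicate 2 and lines the mean of 2 libraries; hth and zfh2 stand highest at 0% (28.9% and 27.0%), and nub at 60% (29.5%).

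The gene hth spans 10507561 to 10639568 on 3R, 132008 bp, and has 114 of the 280 regions. Of these, 93 overlapped the span, 11 lay below its lower end and 10 above its upper end. Listed regions covered 27.7% and 30.0% of its territory in the 0% libraries, replicate 1 first here and below. The values were 11.9% and 14.2% at 48%, 16.6% and 13.6% at 60%, 15.6% and 15.0% at 69%, and 11.4% and 16.1% at 78%. All 8 pupal wing libraries lay below both disc libraries, and no neighbouring pupal wing stages were separated beyond their libraries. The mean of the pupal wing stages minus 0% was -0.180 (SE 0.0239, limma adjusted p = 0.00139), and 48% minus 0% was -0.198 (SE 0.0302, limma adjusted p = 0.00338). Between 48% and 78% the difference was 0.00941 (SE 0.0302, limma adjusted p = 0.850).

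The direction held within each dated folder. In the first folder the disc library covered 27.7% and the pupal wing libraries 11.4% to 16.6%; in the second they covered 30.0% and 13.6% to 16.1%. Fitted on the first folder alone, the hth difference between pupal wing and disc was -0.169 with a limma adjusted p of 0.0869. On the 6 libraries of short fragment length it was -0.180 with a limma adjusted p of 0.0673. Either set holds 6 of the 10 libraries, with 1 disc library that is assumed to vary like the other stages. The calls were lost there with little change in the estimate, fewer of all genes were called there too, and why was not tested. With either disc library alone left out of the 10, hth was still called lower. Over 21 alternatives the adjusted p ranged from 0.000372 to 0.0869.

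Covered length was lost at hth in regions that disappeared, in regions that narrowed and in others that were neither. The regions of hth covered 43902 bp on average at 0% and 21744 bp in the pupal wing. There were 14 regions listed in both disc libraries and in no pupal wing library, called disc only here, and together they held 6841 bp of the disc mean. Of the 19 regions of hth listed in all 10 libraries, 7 were narrower in every pupal wing library than in either disc library, 3 were wider and 9 overlapped. The 7 narrower regions went from 13359 to 6909 bp. More was lost in the 88 regions that were neither disc only, pupal wing only, narrower nor wider, most of them listed in some pupal wing libraries, which went from 22485 to 11250 bp.

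The widest disc only region of hth ran from 10578713 to 10580840, near the middle of the gene. It covered 2128 and 1841 bp in the disc libraries and 0 bp in all 8 pupal wing libraries. Next in width came 10539288 to 10540140, with 853 and 813 bp in the disc, and 10631702 to 10632525, with 588 and 697 bp. The other 11 disc only regions of hth were 184 to 576 bp wide. They lay along the whole gene, 2 of them below its lower end and 1 above its upper end.

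Some hth regions kept a listing in every library while most of their length was lost. The region from 10599481 to 10601592 covered 2051 and 1962 bp in the disc and 245 to 512 bp in the pupal wing (median 467.5 bp). The region from 10633072 to 10634830 covered 1657 and 1609 bp in the disc and 390 to 899 bp later (median 631.5 bp). The widest region of the gene, from 10573243 to 10575768, covered 2409 and 2289 bp in the disc, 660 and 640 bp at 48%, and 877 to 1431 bp from 60% on. None of these groups of libraries overlapped.

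A few hth regions went the other way, so the gene did not shrink evenly. Listing in all 8 pupal wing libraries and in no disc library, called pupal wing only here, was found at 10544165 to 10545130 and at 10563102 to 10563781. The first covered 562 to 892 bp (median 691.5 bp) and the second 236 to 680 bp (median 440 bp). Farther along, the region from 10572056 to 10573110 widened from 101 and 145 bp in the disc to 378 to 755 bp. The region from 10593833 to 10595559 widened from 954 and 959 bp to 1060 to 1717 bp, with both 48% libraries the narrowest of the pupal wing.

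With the span cut into 10 equal bins from its lower-coordinate end, the loss at hth was uneven. Bin 2 was covered over 44.6% and 47.7% in the disc libraries and 2.38% to 11.1% in the pupal wing. Bin 6, which holds the widest disc only region, went from 42.2% on average to 9.89% to 15.4%. Bin 5, which holds the second pupal wing only region, was higher in the pupal wing, at 15.2% to 21.6% against a disc mean of 11.1%. Bins 7 and 9 overlapped between disc and pupal wing. Bin 3 was close, at 16.3% and 15.1% in the disc and up to 15.0% in the pupal wing. The flanks of the gene lost covered length too. Listed regions covered 29.1% and 33.7% of the 20000 bp of flank in the disc, 0.635% and 2.02% at 48%, and 2.80% to 12.9% later.

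**Figure D2:**
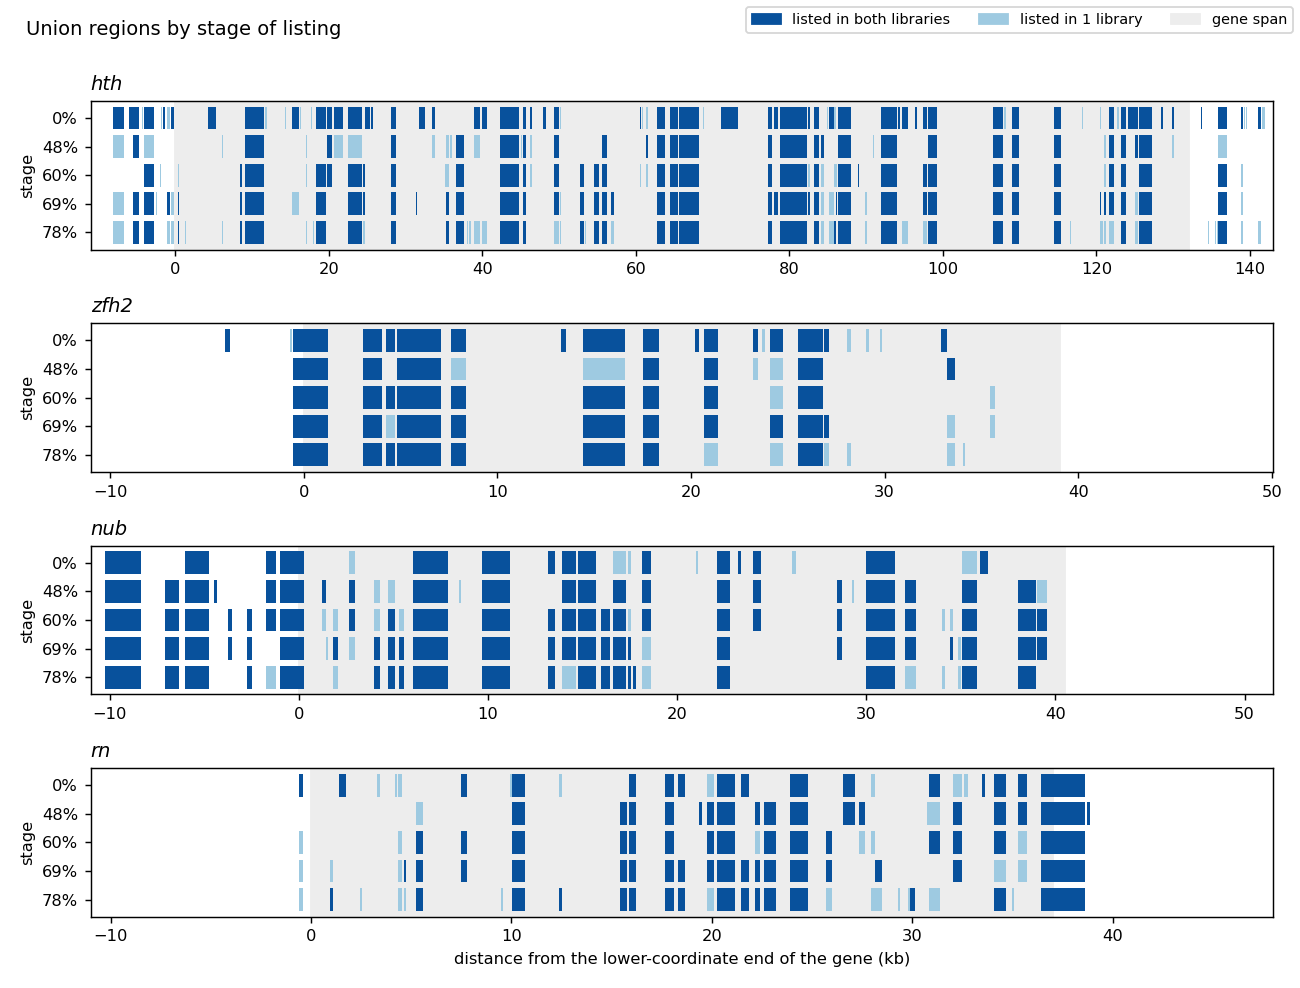
Regions of hth, zfh2, nub and rn by stage. The horizontal axis is the distance from the lower-coordinate end of the gene (kb), grey is the gene span, dark bars are regions listed in both libraries of a stage and pale bars regions listed in 1. Many dark bars of hth and zfh2 at 0% have none below them at 48%, where 26 and 6 regions had closed.

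The gene zfh2 lies on chromosome 4 from 501810 to 540874, an interval that overlaps Tdg, and has 24 regions, 22 of them overlapping the span. Listed regions covered 27.6% and 26.4% of its territory at 0%, 10.5% and 10.4% at 48%, 14.3% and 12.1% at 60%, 15.9% and 15.7% at 69%, and 13.7% and 13.9% at 78%. Every pupal wing library lay below both disc libraries, and the 48% libraries were the lowest. The pupal wing mean minus 0% was -0.174 (SE 0.0158, limma adjusted p = 0.000311), and 48% minus 0% was -0.217 (SE 0.0199, limma adjusted p = 0.000488). The rise from 48% to 78%, 0.0513 (SE 0.0199), did not pass (limma adjusted p = 0.0919). On log2 values it did, with a limma adjusted p of 0.0175, where 19 alternatives ranged from 0.0175 to 0.563.

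Chromosome 4 genes as a whole were lower in the pupal wing. Of 80 tested, 46 (57.5%) were called lower against 0%, and 16 had a more negative difference than zfh2. The median difference over the chromosome was -0.0752, where that over all genes was 0.0119. The first dated folder alone gave zfh2 -0.224 for 48% minus 0% with a limma adjusted p of 0.0621, again with 1 disc library, where 19 alternatives ranged from 0.000112 to 0.0621.

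Within zfh2 the lower-coordinate end kept more of its listed length than the middle. The widest region, from 506637 to 508906, covered 2270 and 2152 bp in the disc and 1628 to 1820 bp in the pupal wing (median 1745.5 bp). The region over the lower end of the gene, from 501273 to 503047, covered 1533 and 1482 bp in the disc, 781 and 757 bp at 48%, and 860 to 1371 bp later. Both narrowed, with no overlap between disc and pupal wing, yet both stayed listed in all 10 libraries.

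Further into zfh2 the loss was larger. The region from 527353 to 528642 went from 1253 and 1129 bp in the disc to 400 to 778 bp in the pupal wing. Bin 4 of the gene was covered over 34.0% on average in the disc and 0% to 10.3% in the pupal wing, and bin 7 over 51.9% and 10.7% to 28.2%. The 4 disc only regions of zfh2 were short, 179 to 306 bp, and lay at 497723 to 498028 below the gene and at 515106 to 515339, 522042 to 522220 and 534708 to 535009 inside it. The gene had 0 pupal wing only regions. Of its 5 regions listed in all libraries, 4 narrowed and 0 widened.

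**Figure D3:**
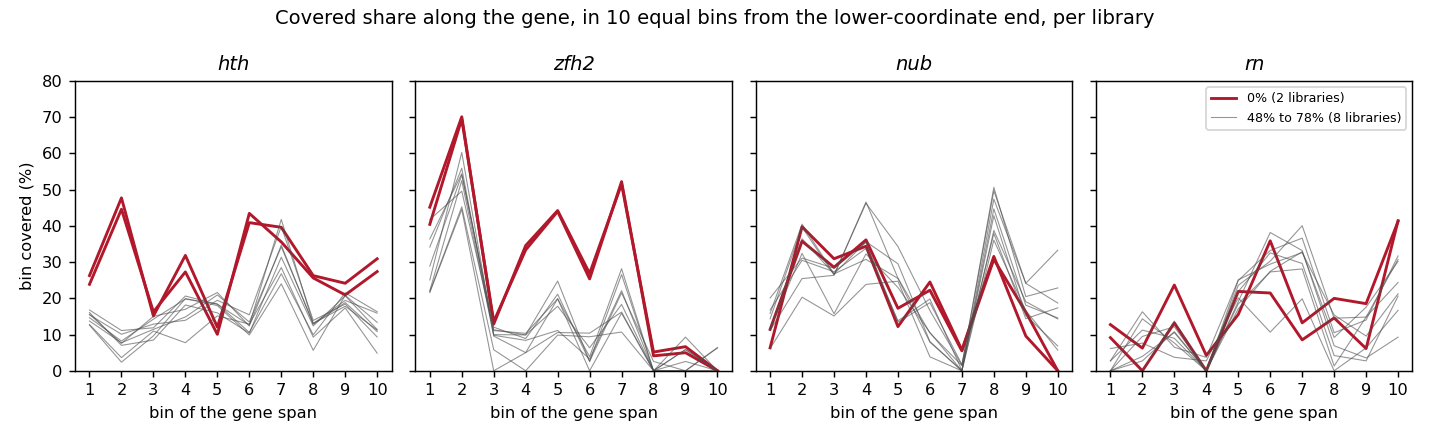
Share of each of 10 equal bins of the gene span covered by listed regions (vertical axis, %), with bins counted from the lower-coordinate end (horizontal axis), for hth, zfh2, nub and rn. Red lines are the 2 libraries of 0% and grey lines the 8 pupal wing libraries; in bin 2 of hth the red lines reach 44.6% and 47.7% and the grey lines at most 11.1%.

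Counted over all 8 genes, regions found only in the disc outnumbered those found only in the pupal wing, and most of them lay at hth. Disc only regions made up 25 of 280 (8.93%), where the share over all regions was 5.84%. Pupal wing only regions were 7 (2.5%), where the share over all regions was 2.67%. From 0% to 48%, 48 of 215 assessed regions closed, meaning listed in both libraries of the earlier stage and neither of the later (22.3%, against 19.8% over all regions). In the reverse sense 21 opened (9.77%, against 8.84%). By gene, 26 of 89 regions closed at hth, 6 of 22 at zfh2 and 3 of 7 at tio, with 3, 1 and 0 opened. At nub 3 closed and 6 opened of 33, at rn 6 and 6 of 33, at pdm2 3 and 3 of 14, and at tsh 1 and 2 of 15.

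Without replicate 1 of 0%, a long-fragment library, the disc only regions number 52 and those closed by 48% number 82; without replicate 2 they number 30 and 56. The disc only count over all regions, 5763, becomes 14945 and 7428, and the count closed by 48%, 13204, becomes 27155 and 15281. Leaving a library out can only keep or raise such a count, because the rule then asks for fewer libraries. From 48% to 78%, 27 of 203 regions opened (13.3%, against 16.5%) and 16 closed (7.88%, against 5.26%). Without replicate 1 of 78%, 74 opened, and without replicate 2 of 78%, 26 closed. Over all regions the first count went from 11773 to 26314 and the second from 3746 to 5678. With every list shortened to the length of the shortest, 11 opened and 27 closed, where 4859 opened and 6122 closed over all regions. The balance after 48% thus changed when list lengths were made equal. Both 48% libraries had the long fragment length setting and both 78% libraries the short one. Stage and setting cannot be told apart in this contrast. Of the 51 member regions listed in all 10 libraries, 8 were wider in every pupal wing library and 19 narrower. Among the 16507 such regions of the whole union, 2768 (16.8%) were wider and 3159 (19.1%) narrower.

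The partner of Hth is encoded by exd, a short gene on X from 15992468 to 15996509 with a region at each end. The region over its lower end, from 15992190 to 15993211, was listed in all 10 libraries. It covered 783 and 673 bp at 0%, 898 and 791 bp at 48%, 775 and 872 bp at 60%, 744 and 598 bp at 69%, and 664 and 613 bp at 78%. The region over the upper end, from 15996447 to 15996786, appeared in each library up to 60% and in replicate 1 alone at 69% and 78%. It covered 253 and 184 bp in the disc and at most 133 bp from 69% on.

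The covered share of the exd territory was 21.6% and 18.9% at 0%, 25.3% and 21.8% at 48%, 20.4% and 22.0% at 60%, 19.3% and 13.2% at 69%, and 16.8% and 13.5% at 78%. Neighbouring stages in the order of the means overlapped throughout. Its fall from 48% to 78% was -0.107 (SE 0.0346) and did not pass over all genes (limma adjusted p = 0.0554), but the call is close to the threshold. It passed with a 500 bp minimum (limma adjusted p = 0.0400), with each library centred on its median (0.0430), with equal list lengths (0.0201) and without either 69% library (0.0420 and 0.0417), where 19 alternatives ranged from 0.0201 to 0.367. On X, 45% of the 1815 genes tested were called lower at 78% than at 48%, and 726 had a more negative difference than exd. Under the pupal wing against disc contrast exd gave -0.0169 (limma adjusted p = 0.640). Its sign turned with the gene span alone and with lists of equal length.

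The paralogs tsh and tio lie on 2L, tsh from 21828593 to 21837011 with 25 regions and tio from 22019208 to 22025734 with 9. At tsh, the territory was covered over 20.5% and 22.2% at 0%, 13.2% and 15.4% at 48%, 19.3% and 15.9% at 60%, 19.6% and 21.2% at 69%, and 11.7% and 19.6% at 78%. Both 48% libraries lay below the disc, and the later ones ranged from 11.7% to 21.2%. Neither the pupal wing mean minus 0%, -0.0569 (SE 0.0298, limma adjusted p = 0.160), nor 48% minus 0%, -0.0925 (SE 0.0377, limma adjusted p = 0.106), passed.

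The value for tsh joined opposite courses in the gene and around it. Inside the 8419 bp span, listed regions covered 13.4% and 15.1% in the disc and 15.2% to 23.7% in the pupal wing (median 21.7%). In the 20000 bp of flank they covered 23.5% and 25.1% in the disc and 9.07% to 20.4% in the pupal wing (median 16.2%). Disc and pupal wing overlapped in neither. With the gene span alone, the tsh difference between pupal wing and disc was 0.0886 (limma adjusted p = 0.0485), where the adjusted p over 21 alternatives ranged from 0.0310 to 0.559. That at 48% was 0.111 (limma adjusted p = 0.0631; 0.0317 to 0.343 over 19 alternatives). The lowest adjusted p-values, 0.0310 and 0.0317, came from leaving out replicate 2 and replicate 1 of 78%, with differences of -0.0704 and -0.0925.

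Single tsh regions changed in both directions. Inside the gene, the region from 21830222 to 21831209 widened from 474 and 504 bp in the disc to 580 to 901 bp (median 781.5 bp). Below the gene, the region from 21822651 to 21823471 narrowed from 707 and 710 bp to 101 to 352 bp. The widest region, from 21846298 to 21848232 above the gene, narrowed from 1859 and 1808 bp to 781 to 1111 bp. Another above it, from 21839360 to 21840877, covered 1518 and 1468 bp in the disc, 0 bp at 48% and 101 to 487 bp later. Other flank regions were found in the pupal wing and not in the disc. The region from 21821247 to 21821855 below the gene was listed in 7 of the 8 pupal wing libraries, over 262 to 591 bp, and that from 21819480 to 21819847 in 7, over 101 to 319 bp. Above the gene, 21841536 to 21841912 was listed in both libraries of 60%, 69% and 78%, over 101 to 377 bp. The region over the lower end, from 21827833 to 21829275, narrowed less, from 1330 and 1332 bp in the disc to 1122 to 1308 bp later. The gene had 0 disc only and 0 pupal wing only regions.

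At tio the covered share was 20.1% and 22.8% at 0%, 15.4% and 17.4% at 48%, 18.6% and 16.3% at 60%, 18.6% and 19.2% at 69%, and 17.7% and 20.6% at 78%. Disc and 78% libraries overlapped, and the pupal wing mean minus 0% was -0.0441 (SE 0.0192, limma adjusted p = 0.103). For 48% minus 0% it was -0.0648 (SE 0.0243, limma adjusted p = 0.0836), which passed on log2 values alone (0.0452), where 19 alternatives ranged from 0.0452 to 0.602. Most of the covered length lay in 2 regions listed in all libraries. The widest, over the lower end from 22018493 to 22020023, covered 1404 and 1507 bp in the disc and 1259 to 1476 bp in the pupal wing, with overlap. The other, from 22024077 to 22025197, covered 815 and 823 bp in the disc and 753 to 1077 bp later. Both disc only regions, from 22026497 to 22026650 and from 22028282 to 22028641, lay above the gene.

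A region above tio, from 22030028 to 22030285, was listed at 0%, missing from both 48% libraries and listed again in both libraries of 60%, 69% and 78%. It covered 101 and 189 bp in the disc and 101 to 201 bp from 60% on. Regions with that course numbered 4 among the 280 (1.43%), 1 each at hth, tsh, tio and nub, where the share over all regions was 1.27%.

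The POU genes nub and pdm2 are neighbours on 2L, and neither had its highest covered share in the disc. The gene nub spans 12587625 to 12628135, an interval that overlaps Ref2, and has 43 regions. Its territory was covered over 21.3% and 22.2% at 0%, 25.9% and 24.8% at 48%, 30.9% and 28.1% at 60%, 26.2% and 24.9% at 69%, and 18.3% and 22.6% at 78%. Both 60% libraries stood above all others, and both 48% libraries stood above the disc. The test passed in no contrast: the pupal wing mean minus 0% was 0.0401 (SE 0.0194, limma adjusted p = 0.133), and 78% minus 48% was -0.0594 (SE 0.0246, limma adjusted p = 0.108). Without replicate 1 of 78%, whose covered share was the lowest, the first became 0.0468 with a limma adjusted p of 0.0433, where 21 alternatives ranged from 0.0433 to 0.423. Without replicate 2 of 78%, 78% minus 48% was -0.0862 with a limma adjusted p of 0.0440, where 19 alternatives ranged from 0.0195 to 0.294. For 48% minus 0%, 0.0427 (SE 0.0246, limma adjusted p = 0.236), centring on library medians gave an adjusted p of 0.0292, where 19 alternatives ranged from 0.0292 to 0.711.

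Around the lower end of nub, listed regions were mostly wider in the pupal wing. The region over that end, from 12586630 to 12587914, widened from 1080 and 1092 bp in the disc to 1162 to 1275 bp. Below it, the region from 12581631 to 12582888 widened from 193 and 298 bp to 773 to 1223 bp (median 1046 bp). Next to that, the region from 12580572 to 12581302 was pupal wing only and covered 614 to 718 bp. The widest region, from 12577372 to 12579303 at the far end of the flank, went the other way, from 1461 and 1410 bp to 530 to 912 bp. Over the flank as a whole, coverage was 28.5% and 29.4% in the disc and 30.4% to 45.4% in the pupal wing.

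The upper part of nub, shared with Ref2, also gained and lost regions. The region from 12625634 to 12626601 was pupal wing only and covered 232 to 890 bp (median 501.5 bp). Both disc only regions, from 12610856 to 12610994 and from 12623648 to 12624036, overlapped Ref2 as well and measured 139 and 389 bp. Inside the gene, the region from 12602373 to 12603340 widened from 481 and 486 bp to 675 to 840 bp, and that from 12593688 to 12595528 narrowed from 1611 and 1449 bp to 348 to 1236 bp. In bin 10, coverage was 0% in the disc and 5.73% to 33.3% in the pupal wing.

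The gene pdm2 spans 12657165 to 12686306, with Nepl7 inside, and has 20 regions. Coverage was 12.2% and 12.9% at 0%, 13.2% and 13.5% at 48%, 12.6% and 11.1% at 60%, 11.7% and 11.5% at 69%, and 8.73% and 11.1% at 78%, and at every stage but 48% the mean was the lowest of the 8 genes. The difference between pupal wing and disc was -0.0139 (SE 0.0175, limma adjusted p = 0.544), and 78% minus 48% was -0.0539 (SE 0.0221, limma adjusted p = 0.105). The latter passed on log2 values, with a limma adjusted p of 0.0342, where 19 alternatives ranged from 0.0237 to 0.264. Span and flank differed here too. The flank was covered over 24.7% and 23.7% in the disc and 14.1% to 17.8% in the pupal wing, and the span over 9.02% and 10.2% in the disc and 7.08% to 13.3% later.

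Near the lower end of pdm2, 2 adjacent regions had different courses. The widest of the gene, from 12657342 to 12658417, covered 867 and 951 bp at 0%, 776 and 768 bp at 48%, 267 bp in both libraries of 60%, 280 and 312 bp at 69%, and 101 and 0 bp at 78%. The region from 12658826 to 12659827 was pupal wing only, and covered 860 and 848 bp at 48%, 597 and 558 bp at 60%, 181 and 141 bp at 69%, and 101 and 350 bp at 78%. The first was thus widest in the disc and the second at 48%, and both were short by 69%. The disc only region from 12687724 to 12688000 lay above the gene. The region from 12678142 to 12679093 widened from 452 and 491 bp in the disc to 527 to 846 bp, and that from 12655473 to 12656301 narrowed from 767 and 750 bp to 525 to 630 bp.

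The gene rn spans 7272617 to 7309629 on 3R, an interval it shares with RacGAP84C and CG42544, and has 43 regions, 41 of them overlapping the span. Coverage was 15.8% and 20.4% at 0%, 18.4% and 19.1% at 48%, 17.7% and 14.6% at 60%, 15.0% and 14.6% at 69%, and 11.1% and 16.9% at 78%. No neighbours in the order of the stage means were separated, and the difference between pupal wing and disc, -0.0293 (SE 0.0275), did not pass (limma adjusted p = 0.417). That from 48% to 78%, -0.0664 (SE 0.0348), did not pass either (limma adjusted p = 0.188). Of its 6 regions listed in all libraries, 5 overlapped between disc and pupal wing.

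The widest region of rn covered its upper end, from 7309045 to 7311235, and measured 1711 and 1622 bp in the disc and 1294 to 1806 bp in the pupal wing (median 1612.5 bp). Pupal wing only regions lay inside the gene at 7288056 to 7288403 and 7295205 to 7295832. The first covered 147 to 348 bp and the second 202 to 551 bp. Bin 7 of rn, which holds the second, was covered over 10.9% on average in the disc and 19.9% to 40.1% in the pupal wing. The disc only regions, from 7273994 to 7274366 and from 7306098 to 7306263, measured 373 and 166 bp.

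**Figure D4:**
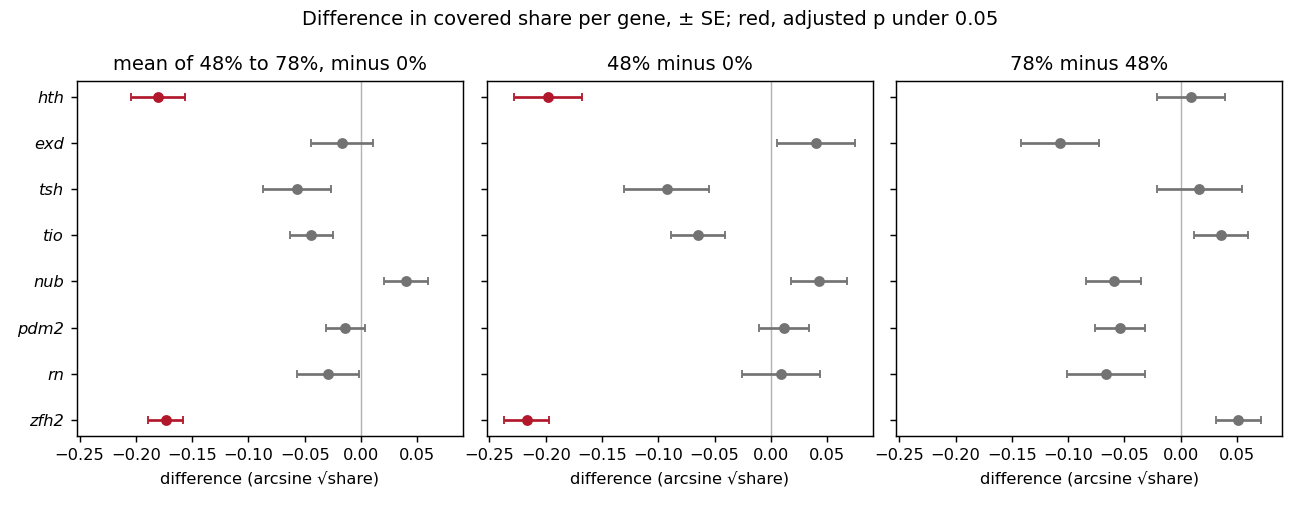
Difference in covered share for each gene on the arcsine square root scale (horizontal axis) in 3 contrasts, with points at the estimate and bars of 1 SE from limma. Red points have an adjusted p under 0.05; hth and zfh2 are red at -0.180 and -0.174 in the first panel and at -0.198 and -0.217 in the second, and no gene is red in the third.

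From 48% to 78%, 0 of the 8 genes passed the limma test, where 18.9% of all genes were called higher and 12.3% lower. Unadjusted p-values were 0.0180 for exd, 0.0372 for zfh2, 0.0451 for pdm2 and 0.0466 for nub. The median difference was -0.0223 over the 8 genes and 0.0358 over all genes. These calls moved with scaling. With each library centred on its median, or with equal list lengths, 4 of the 8 (exd, nub, pdm2 and rn) were called lower at 78%. Over all genes the number lower moved too, from 1604 of 13092 to 2152 with centring and 2206 of 12563 with equal lists. The signs of hth and tsh in that contrast turned under both settings. With the fragment length setting as a term, 549 of all genes were lower and 532 higher, where 2469 were higher as fitted.

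Across the 10 libraries the transformed covered shares of hth and zfh2 had a Pearson correlation of 0.939, and those of pdm2 and rn of 0.911. The correlation of nub with hth was -0.229 and with zfh2 -0.385. All of these rest on the same libraries, their stages and their list lengths, and are descriptions only. Among 4797 to 4803 genes far from each member, the course most like that of hth was found at tun (0.992) and bard (0.992), and the most like that of zfh2 at CG7320 (0.982) and blow (0.98). For rn, the nearest was Dll (0.923), a homeobox gene of the distal appendage, followed by Uba1 (0.921). For tsh they were CG14280 (0.989) and the zinc finger gene Kr (0.964), and for tio CG8483 (0.98) and AstC-R2 (0.978). The nearest were CG16964 (0.951) and TwdlE (0.942) for nub, Su(z)2 (0.961) and CG7304 (0.956) for pdm2, and mei-W68 (0.913) and LIMK1 (0.902) for exd.

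Other genes of the wing's proximodistal axis were also less covered in the pupal wing. Of 37 tested, 24 were called lower than at 0% and 1, the zinc finger gene salm, higher, with a median difference of -0.122. Over all genes, 21% were lower and 22.5% higher, with a median of 0.0119. The homeobox gene al fell from 46.5% at 0% to between 15.7% and 29.2% at the pupal wing stages (limma adjusted p = 6.24e-05). The zinc finger gene sob fell from 51.4% to between 13.7% and 22.9% (limma adjusted p = 6.68e-05), and the homeobox gene Dr from 36.1% to between 18.3% and 21.9% (limma adjusted p = 0.000302). The 3 also led the 18 called lower at 48%, where 1, the T-box gene Doc3, was higher. Over all genes, 20.9% were lower at 48% and 12.4% higher. The medians of the axis genes were -0.0855 for 48% minus 0% and -0.0355 for 78% minus 48%, where those over all genes were -0.00830 and 0.0358.

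From 48% to 78%, 6 axis genes were lower, led by the JAK/STAT ligand gene upd3 (29.9% to 9.39%), al and the T-box gene bi (17.0% to 6.95%), and 1, noc, was higher. Both upd3 and bi are X-linked, and 45% of X genes were called lower in this contrast, against 12.3% of all genes. In the first dated folder alone, fewer axis genes were called lower in the pupal wing and at 48%, and so were fewer of all genes. The same held in the pupal wing with short fragment lengths alone. Either set has 1 disc library.

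Some markers of other cell types were called in the same contrast, where 21% of all genes were called lower and 22.5% higher. Of 8 muscle and myoblast genes, 6 were lower in the pupal wing. Another 1, how, was higher, at 26.0% at 0% and 37.6% to 42.2% by stage later. The summed covered share of the 8 was 30.7% to 34.5% in the disc libraries and 16.9% to 23.9% in the pupal wing. Him, a myoblast gene, went from 37.8% to 0% in every pupal wing library. Mhc, the myosin heavy chain gene, went from 33.0% to between 6.91% and 14.0% by stage, and bt from 24.3% to between 4.16% and 4.94%. The last lies on chromosome 4, where 57.5% of the genes tested were called lower in the pupal wing. At 48%, 5 of the muscle and myoblast genes were lower, sls among the first, and 1, how, was again higher. Over all genes, 20.9% were lower and 12.4% higher at 48%. From 48% to 78%, 3 (sls, Mhc and Mef2) were higher and 0 lower, where 18.9% of all genes were higher and 12.3% lower. The part of the muscle and myoblast genes in the results for hth and zfh2 was not tested.

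The remaining marker lists are short, and their counts stand against the same shares over all genes, 21% lower and 22.5% higher. Of 6 hemocyte genes, 3 were lower in the pupal wing, with a summed share of 24.4% to 28.3% in the disc and 13.5% to 19.6% later. Those called lower were eater, at 16.2% in the disc and 0% in every pupal wing library, NimC1 and ush. Of 6 trachea genes, 2 (trh and kni) were lower and 1 (vvl) higher, and the summed share was 29.8% to 31.1% and 18.0% to 27.6%. Of 7 genes of sensory organs and neurons, 3 were lower, sv (like bt on chromosome 4) and scrt among them. Another 1, the synaptic gene nSyb, rose from 0% to between 7.96% and 17.3%. The summed share of this list, 9.82% to 12.9% in the disc and 6.21% to 10.96% in the pupal wing, overlapped between the groups. Of 8 wing epithelium genes, all with listed regions in disc and pupal wing, 3 (ds, ap and vg) were lower, and the summed share was 33.5% to 34.97% and 19.1% to 29.9%. That list is not a separate set, since 5 of its genes (ap, ds, fj, sd and vg) are among the axis genes above and 1 is nub. The part of these cell types in the results was not tested either.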

How the data were processed

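The deposited files are BED lists of open regions, 1 per library. Per the file headers, the authors made them with HOMER findPeaks in histone style, with a window of 100 bp, a Poisson p of 0.001, a 10 kb local filter at p 0.0001, a genome size of 120 Mb and no input control. The build dm6 and, beside HOMER, the tools Bowtie2, Picard, SAMtools and MACS2 come from the submitters' processing notes. The headers name no shift for the transposase cut. The deposited score is the constant 1, so coordinates in bp, counted from 1, are the measure.

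The 10 D. melanogaster lists were merged into a union. A library listed a region if its entries shared at least 1 bp with it. Gene spans came from RefSeq's table of the same assembly, which has no strand or exons, so promoters were not identified. Sequences and motifs, and the 15 D. biarmipes lists, were not used here. The limma 3.58.1 fit (R 4.3.3, trend) held 5 stages and 3 contrasts, called at an adjusted p under 0.05, and was tested on simulated data; Python 3.11.15 did the rest.

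The 8 genes, the lists and the tests were chosen with earlier results of these data known. Of 38 axis genes, 37 matched. Named genes are up to 3 called genes with the smallest p per list and contrast, the genes called in the rarer direction, and the 2 genes most like each member (mean covered length of at least 1000 bp, over 100 kb away). Named regions are the widest, those over gene ends, and disc only or pupal wing only ones; others were chosen after their values were seen. Alternatives were a replicate block, median centring, log2(covered bp + 100), span alone, a minimum of 500 bp, equal lists, the first 50% of each list, 50% overlap, the 5 pooled lists, dated folder, fragment length setting, 48% left out and each library left out.
Leaving out 48%, the short fragment length setting alone, and the rule for wider and narrower regions with its alternatives were chosen after seeing the data.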

Additional observations from a re-analysis of the deposited data

How the results depend on the processing

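The signs of hth and zfh2 held for the pupal wing against 0% and for 48% against 0% under every alternative run, with each library left out giving -0.193 to -0.167 and -0.181 to -0.167 in the first contrast. The listing rests on list length and fragment length setting, the 0% and 48% stages have 2 libraries each, and 48% has no library in the second dated folder. The cause of the changes below was not tested.

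Counts over all regions stand in brackets where they were made. Under the main rule these were 2631 pupal wing only, 5763 disc only, 5887 opened and 13204 closed by 48%. After 48%, 11773 opened and 3746 closed. With 48% left out, 18 regions were pupal wing only (4930) and 31 narrower. With 50% of a region required, 49 were disc only (8810) and 28 closed from 48% to 78% (6857). On the pooled lists, 16 were pupal wing only (4681), 62 disc only (15365), 36 opened by 48% (9064) and 95 closed by 48% (28907). From 48% to 78%, 69 opened on the pooled lists (31243) and 29 closed (6445). With the first 50% of each list, 10 opened by 48% (3719) and 16 opened after (6865). Equal lists gave 11 opened (4859) and 27 closed (6122) after 48%. Short fragment lengths alone gave 23 pupal wing only (6569), 58 disc only (16133), 16 wider and 34 narrower regions. Without 1 library, pupal wing only regions numbered 7 to 10 (2650 to 3792) and disc only 25 to 52 (5812 to 14945). Likewise 21 to 30 opened by 48% (6056 to 8858) and 54 to 82 closed by 48% (13945 to 27155). After 48%, 31 to 74 opened (12706 to 26314) and 20 to 26 closed (4442 to 6120). Wider regions numbered 8 to 12 without 1 library and narrower ones 19 to 23. All region counts with libraries left out could only stay or rise, because the rules then ask for fewer libraries. That includes 48% left out and short fragment lengths alone.

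Of the 8 genes, 1 was lower in the pupal wing in the first folder alone and with short fragment lengths alone, and 0 at 48% in the first folder. With the span alone 1 was higher in the pupal wing, and with median centring 1 was higher at 48%. From 48% to 78%, 4 were lower with centring and with equal lists, 1 with log2 values (and 1 higher) and 1 with the 500 bp minimum. Over all genes, 1604 were lower in that contrast as fitted, 2152 with centring and 2206 with equal lists. In the first folder alone and with short fragment lengths alone, fewer of all genes were called than as fitted. Replicate numbers do not pair the samples (correlations of deviations -0.206 to 0.163); the replicate block gave 1 lower from 48% to 78%, exd, and changed no other count of called members. Without 1 library, 2 to 3 were lower and 0 to 1 higher in the pupal wing, 2 to 3 lower and 0 higher at 48%, and 0 to 1 lower and 0 higher from 48% to 78%.

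Of the axis genes, the numbers higher and lower in the pupal wing were 0 and 4 in the first folder and 0 and 9 with short fragment lengths; 2 were higher with equal lists and 4 with the span alone. At 48%, 0 were higher and 0 lower in the first folder, 2 higher with equal lists, 3 with the span alone and 0 with the fragment length term. From 48% to 78%, 15 were lower with centring, 18 with equal lists, 3 with the fragment length term (0 higher) and 0 in the first folder (0 higher); 2 were higher with log2 values and with the 500 bp minimum. Without 1 library, 18 to 26 were lower and 0 to 1 higher in the pupal wing, 12 to 21 and 0 to 1 at 48%, and 4 to 13 and 0 to 2 from 48% to 78%.

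Signs turned for hth from 48% to 78% with centring (-0.0193), equal lists (-0.0185), the first folder (-0.0251), the fragment length term (-0.0246), the span alone (-0.0059) and without 1 library (-0.0251 to 0.0439). For tsh they turned in that contrast with centring (-0.0123), equal lists (-0.0437), the first folder (-0.0379), the fragment length term (-0.0158), the span alone (-0.0431) and without 1 library (-0.0379 to 0.0706), and with the span alone in the pupal wing (0.0886) and at 48% (0.1111). For exd in the pupal wing they turned with equal lists (0.0029) and the span alone (0.0111), for pdm2 with the span alone (0.0177), and for rn without 1 library in the pupal wing (-0.0589 to 0.0004) and at 48% (-0.0204 to 0.0388).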
